A study of Homo sapiens with 6 samples.

Results

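Cells of the human colorectal adenocarcinoma line HT29 were compared 48 h after transfection with an siRNA against the glycolytic enzyme ALDOA (siALDOA, 3 libraries) or with a scrambled siRNA (siControl, 3 libraries). The genes described here are heat shock proteins and J-domain cochaperones. They were taken by symbol, as every HSPA, HSPB or HSP90 gene, HSPD1, HSPE1, HSPH1 and every numbered DNAJA, DNAJB or DNAJC gene. HSPA5, HSP90B1, DNAJB9, DNAJB11 and DNAJC3, which serve the unfolded protein response of the endoplasmic reticulum (ER), were left out, as were the binding proteins HSPBP1 and HSPBAP1 and the pseudogenes HSPA7, DNAJB3, HSP90AB4P and HSP90B2P. This gave 66 genes of the 28278 listed, 27 heat shock proteins and 39 J-domain proteins. Some of them, such as DNAJC10, are still proteins of the ER. Only 1 siRNA is named for ALDOA in the labels and untransfected cells are not among the samples, so effects of lower ALDOA and other effects of that siRNA cannot be told apart.

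Heat shock proteins are chaperones that bind unfolded or partly folded proteins. HSP70 proteins bind and release their clients in a cycle driven by ATP, J-domain proteins bring clients to HSP70 and stimulate its ATPase, and HSP110 proteins and BAG proteins exchange the nucleotide. HSP90 takes clients that are nearly folded, such as kinases and steroid receptors, HSP60 (HSPD1) and HSP10 (HSPE1) form the folding chamber of mitochondria, and small heat shock proteins hold unfolded proteins without ATP. After heat or other protein damage the factor HSF1 binds heat shock elements, repeated GAA units in alternating orientation, and raises the transcription of many of these genes. Cancer cells often hold high levels of them.

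The siALDOA libraries held 27277538 to 28690395 counts on genes and the siControl libraries 31899091 to 33237914, so every siControl library was deeper. Of the genes, 15307 passed the filter on low counts and were tested with edgeR's quasi-likelihood test. The p-values were adjusted over all tested genes by the Benjamini-Hochberg method. Levels are given in CPM, the counts scaled by TMM normalization to a common library size. The labels call the replicates biological without saying how they were separated, so the p-values measure the spread between these libraries. ALDOA itself was at 283, 305 and 280 CPM with siALDOA and at 592, 637 and 668 CPM with siControl. Its log2 fold change was -1.13 (standard error, SE, 0.0601, adjusted p = 6.95e-11). The colon epithelial markers summed to 8380 to 8610 CPM with siALDOA and 9190 to 9650 CPM with siControl. Most of this came from the keratins KRT8 (means of 5090 and 5600 CPM) and KRT18 (1910 and 2320 CPM). EPCAM, KRT20, CDH1 and VIL1 had means from 278 to 527 CPM. CDX2 (12.4 and 14.4 CPM) and CDH17 (5.9 and 4.6 CPM) were low, and LGALS4 had no count. KRT18 was called lower (log2 fold change -0.28, adjusted p = 0.0152). The 10 markers of blood, stromal and endothelial cells summed to 17.4 to 18.6 CPM with siALDOA and 17.2 to 19.8 CPM with siControl. Most of this sum was CD68, with means of 14 and 13.8 CPM. COL1A1 had means of 2.37 and 1.94 CPM and ACTA2 of 0.811 and 0.488 CPM. CD3E and COL1A2 were at 0 in all libraries, and PTPRC, COL3A1, PDGFRB and VWF were near 0. PECAM1, near 1 CPM, was the only one of the 10 called, and was lower (adjusted p = 0.0429). Ribosomal RNA genes took 13.1%, 7.71% and 8.11% of the counts with siALDOA and 17.4%, 15.3% and 8.15% with siControl.

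Few chaperone genes differed between siALDOA and siControl. Of the 66 genes, 59 passed the filter and were tested. At an adjusted p below 0.05 the ER disulfide reductase DNAJC10 and the mitochondrial HSP70 HSPA9 fell, and the readthrough symbol HSPB2-C11orf52 rose. The 1 gene called higher made up 1.69% of the tested members, and 4.36% of all tested genes were called higher. The 2 genes called lower made up 3.39% of the tested members, beside 5.29% of all tested genes. At the unadjusted P below 0.01 that the study used, HSPB1 joined the higher genes, which gave 2 members where 5.72% of all genes passed, and the mitochondrial J-domain protein DNAJC11 joined the lower ones, which gave 3 members where 6.74% of all genes passed. The 3 siALDOA levels all lay above the 3 siControl levels for 6 members, or 10.2%, where this held for 13.1% of all tested genes. They all lay below for 8 members, or 13.6%, where this held for 14.6% of all tested genes. None of these shares was above that over all genes. At an unadjusted P below 0.05 there were 9 higher members (15.3%) and 5 lower ones (8.47%), beside 11.3% and 12.3% of all tested genes. The log2 fold changes of the tested members ran from -0.48 for HSPA12A to 1.18 for DNAJC6, with 34 above 0, 25 below 0 and a median of 0.029, and the median over all tested genes was 0.0016. The members' median was -0.013 without siALDOA 1, 0.0014 without siControl 3 and 0.11 with scaling by library totals only, which moved the median over all genes to 0.075.

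**Figure D1:**
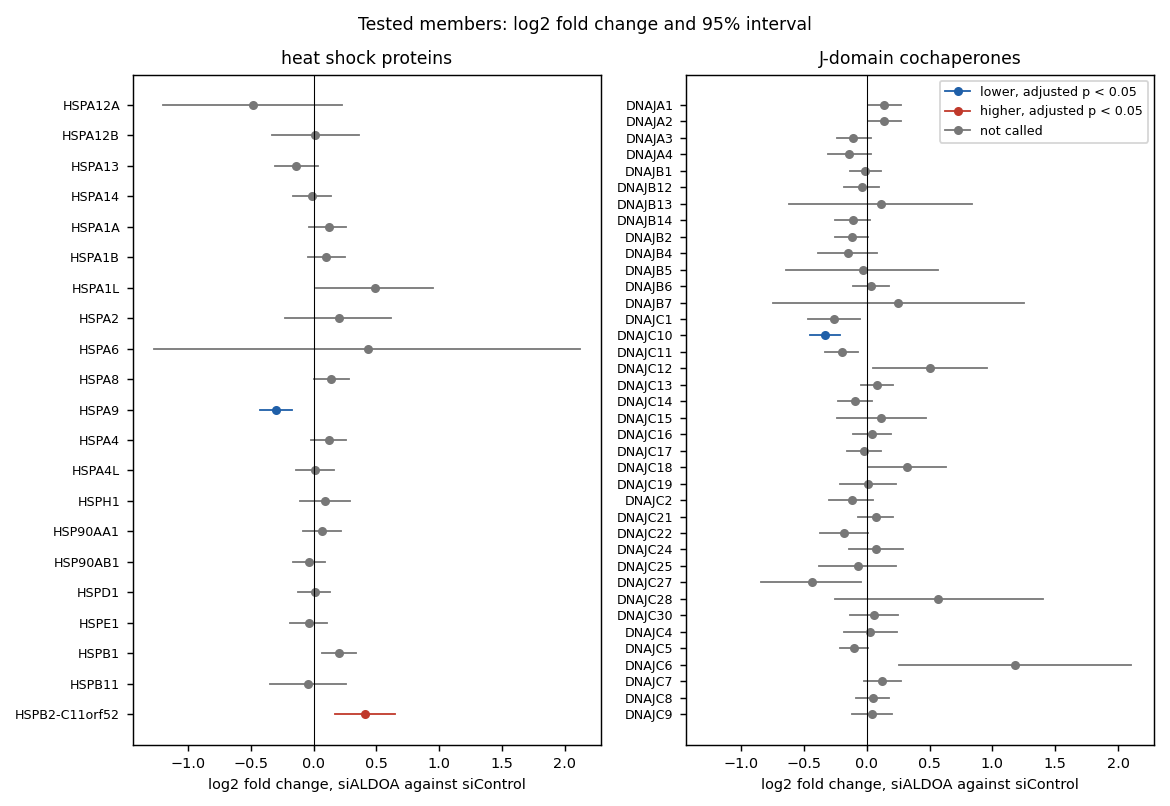
Log2 fold change of the 59 tested members, siALDOA against siControl, with the 95% interval of edgeR's fit as a line, heat shock proteins on the left and J-domain cochaperones on the right. Most intervals cross 0, HSPA9 and DNAJC10 in blue lie below it with narrow intervals, and the wide intervals belong to genes of low level such as HSPA6, DNAJB7 and DNAJC6.

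The members differed far more in level than in their response. Per kilobase of the canonical transcript of GENCODE release 44, the constitutive cytosolic HSP70 gene HSPA8 had the highest siControl level, 506 CPM per kb. HSP90AB1, the constitutive cytosolic HSP90, followed with 422 CPM per kb, and the stress-inducible HSP70 genes HSPA1B and HSPA1A had 372 and 355 CPM per kb. HSPD1 was at 227, HSPB1 at 173, HSP90AA1 at 138 and HSPE1 at 120 CPM per kb. Among the J-domain genes DNAJA1 was highest with 71.2 CPM per kb, followed by DNAJC5 with 62.9 CPM per kb. HSPA8, HSP90AB1, HSPA1B and HSPA1A together took 50.8% of the CPM of all members, and 10 genes took 74.6%. These shares would be too high if reads that match both HSPA1A and HSPA1B were counted in each, which the sources used here do not tell. At the other end HSPB3 had no count in any library, which allows up to 3 counts or 0.0913 to 0.108 CPM per library. DNAJB8 and HSPB2 each had a total of 1 count over the 6 libraries, and HSPB6, HSPB7, HSPB8 and HSPB9 had at most 21 counts in a library. These 7 genes were not tested. The summed level of all members was 8550, 8050 and 8050 CPM with siALDOA and 8200, 8140 and 7750 CPM with siControl. The groups overlapped in this sum.

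**Figure D2:**
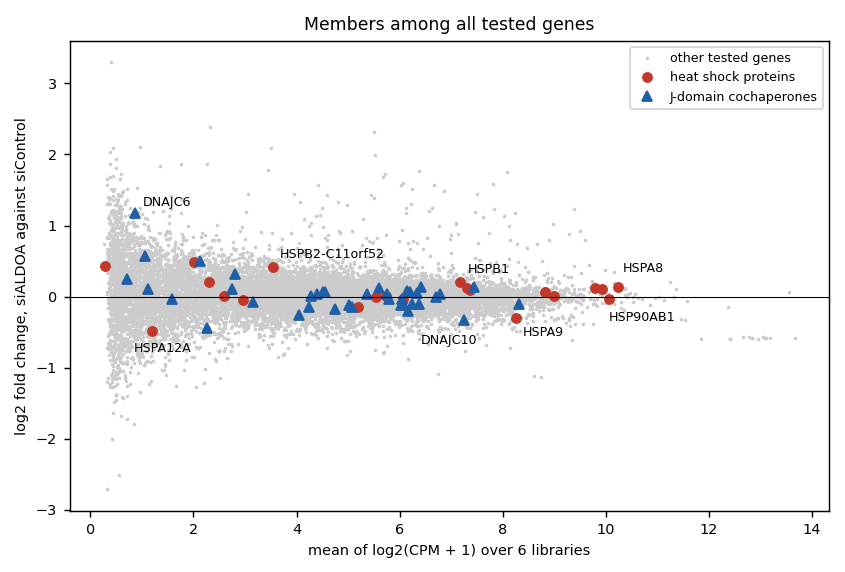
Log2 fold change, siALDOA against siControl, plotted against the mean of log2(CPM + 1) over the 6 libraries for all 15307 tested genes (grey), the heat shock proteins (red circles) and the J-domain cochaperones (blue triangles). The members span the range of levels and lie within the cloud of the other genes, with HSPA9 and DNAJC10 near its lower edge at their levels.

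To show what the promoters of these genes hold, the RefSeq windows of GRCh38.p14 from 250 bases before to 50 after each start were searched for a pair of heat shock element units, GAANNTTC or TTCNNGAA, where N is any base. Each of these words is its own reverse complement, so both strands were covered. A window with a further unit at the same spacing of 2 bases was counted as a 3-unit element, which contains overlapping pairs. A window was found for 59 of the 66 members. DNAJC1, DNAJC22, DNAJC24, HSPA12B, HSPA14, HSPB2 and HSPB2-C11orf52 had no entry. A pair was present in at least 1 window of 22 of the 59 members (37.3%), beside 16.2% of the 27305 genes in the table, and a 3-unit element was present in 7 members (11.9%), beside 0.608% of all genes. Counted by window, pairs were in 23 of the 79 member windows (29.1%) and in 13.5% of all 35116 windows of the same length. In the list of 15 members known to be induced by heat, 13 had a pair and 6 had a 3-unit element. Of the 44 other members, 9 had a pair and 1 had a 3-unit element. The windows of the most abundant HSP70 and HSP90 genes and of the 2 individual genes that fell are shown, since they differ in these letters. Capitals mark the matched element, and a window without capitals held no match.
HSPA8, chr11:123062087-123062386, minus strand: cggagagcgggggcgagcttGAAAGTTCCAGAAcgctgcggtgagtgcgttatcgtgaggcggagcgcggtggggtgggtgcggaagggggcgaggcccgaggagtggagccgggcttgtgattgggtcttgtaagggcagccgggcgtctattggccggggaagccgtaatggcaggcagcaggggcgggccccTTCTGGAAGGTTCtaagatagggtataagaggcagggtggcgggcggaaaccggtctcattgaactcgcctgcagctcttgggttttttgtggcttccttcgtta
HSP90AB1, chr6:44247693-44247992, plus strand, 1 of 3 windows: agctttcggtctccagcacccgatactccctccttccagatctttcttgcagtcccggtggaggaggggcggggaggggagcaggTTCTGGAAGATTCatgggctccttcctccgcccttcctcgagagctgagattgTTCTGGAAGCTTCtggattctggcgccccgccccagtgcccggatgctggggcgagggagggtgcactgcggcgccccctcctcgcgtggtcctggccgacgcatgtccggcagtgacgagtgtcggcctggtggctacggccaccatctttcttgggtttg
HSPA9, chr5:138575352-138575651, minus strand: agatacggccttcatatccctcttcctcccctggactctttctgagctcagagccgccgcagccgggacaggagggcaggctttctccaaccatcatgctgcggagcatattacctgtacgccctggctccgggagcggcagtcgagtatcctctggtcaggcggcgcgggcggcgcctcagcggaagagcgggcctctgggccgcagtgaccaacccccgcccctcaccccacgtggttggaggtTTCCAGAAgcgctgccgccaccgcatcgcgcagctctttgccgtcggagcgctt
DNAJC10, chr2:182716007-182716306, plus strand: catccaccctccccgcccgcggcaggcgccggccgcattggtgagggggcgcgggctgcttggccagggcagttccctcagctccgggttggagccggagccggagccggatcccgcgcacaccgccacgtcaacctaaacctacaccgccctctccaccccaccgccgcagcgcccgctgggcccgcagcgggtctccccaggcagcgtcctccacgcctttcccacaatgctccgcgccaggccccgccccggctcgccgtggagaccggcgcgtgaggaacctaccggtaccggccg
HSPA8 and HSP90AB1 each held a pair of 3-unit elements, which began 230 and 55 bases before the start in HSPA8 and 165 and 112 bases before it in HSP90AB1. HSPA9 held a single pair of units 4 bases before the start, and DNAJC10 held none. A match of letters is not a measured binding site.

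**Figure D3:**
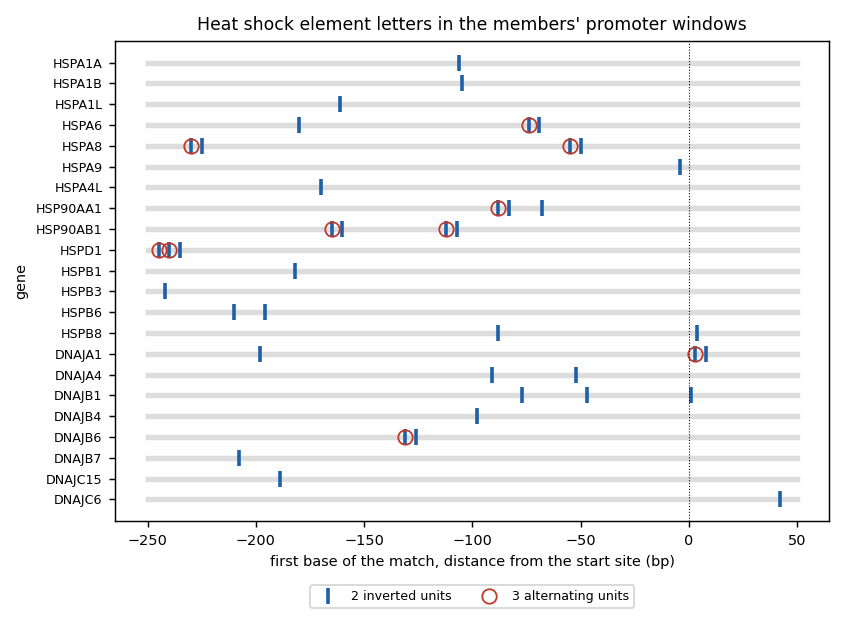
Distance in base pairs of each heat shock element match from the start site, at 0, in the 22 members with a match, where blue ticks are pairs of units, red circles are 3-unit elements and the grey bar is the window from 250 bases before to 50 after the start. Matches of genes with several windows are drawn on 1 line, and the 3-unit elements belong to HSPA6, HSPA8, HSP90AA1, HSP90AB1, HSPD1, DNAJA1 and DNAJB6.

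In the HSP70 family 1 of 11 tested genes fell (9.09%, beside 5.29% of all tested genes) and none rose (beside 4.36%). HSPA9 (chromosome 5, 138553756 to 138575675, minus strand, hg38) encodes mortalin, the HSP70 of the mitochondrial matrix, which pulls imported proteins through the inner membrane and takes part in iron-sulfur cluster assembly. It was at 274, 277 and 268 CPM with siALDOA and at 304, 353 and 355 CPM with siControl. All siALDOA libraries lay below all siControl libraries, and siControl 1 was the nearest to them. The level with siALDOA was 81% of that with siControl, with a log2 fold change of -0.30 (SE 0.0622, 95% interval -0.43 to -0.17, adjusted p = 0.00296). HSPA9 was called in 13 of 14 alternatives and not when only library totals were used for scaling, which gave -0.23 with an adjusted p of 0.0976. Its promoter, shown above, has a single pair of units and no 3-unit element, which only 11.9% of the members with a window held. A link between these letters and the lower level was not tested. No 150-base stretch of the HSPA9 transcript is shared with another gene.

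The abundant cytosolic HSP70 genes did not pass the test. HSPA8, which encodes HSC70 and also serves clathrin uncoating and chaperone-mediated autophagy, was at 1300, 1270 and 1220 CPM with siALDOA and at 1150, 1220 and 1060 CPM with siControl. The groups met at 1220 CPM. Its log2 fold change of 0.14 had a 95% interval of 0.00095 to 0.28 and an adjusted p of 0.208. The paralogs HSPA1A and HSPA1B encode almost the same stress-inducible HSP70 protein. HSPA1A was at 983, 865 and 926 CPM with siALDOA and at 950, 812 and 798 CPM with siControl. HSPA1B was at 1040, 941 and 1030 CPM with siALDOA and at 1030, 902 and 879 CPM with siControl. In both genes siControl 1 lay within the siALDOA range. The log2 fold changes were 0.12 for HSPA1A (95% interval -0.033 to 0.26, adjusted p = 0.352) and 0.10 for HSPA1B (95% interval -0.042 to 0.25, adjusted p = 0.405). Of the 150-base stretches of their transcripts, 69.6% for HSPA1A and 70.1% for HSPA1B also occur in another gene, the paralog or ENSG00000285565, so the split of reads between them is uncertain. Their summed counts, an alternative chosen after seeing the data, gave a log2 fold change of 0.11 (95% interval -0.056 to 0.27, adjusted p = 0.443). The testis-enriched HSPA1L, at 3.63 ± 0.68 and 2.59 ± 0.489 CPM (SD, n = 3), had the highest value of the family, 0.49, with an adjusted p of 0.194. HSPA12A, a distant relative, had the lowest, -0.48, with an adjusted p of 0.433. HSPA6, which is nearly silent without strong stress in most cells, had counts of 13, 0 and 10 with siALDOA and 2, 4 and 13 with siControl, and its symbol shares 15.3% of its stretches with the pseudogene HSPA7. HSPA2, HSPA12B, HSPA13 and HSPA14 lay between -0.14 and 0.20.

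**Figure D4:**
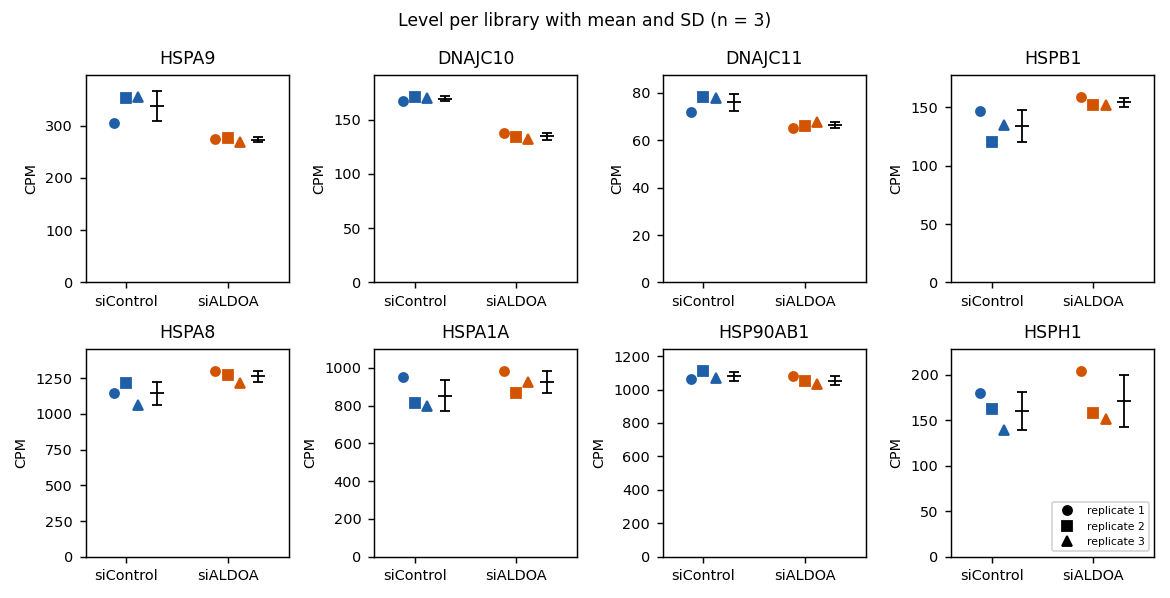
Level in CPM of 8 members in each library of siControl (blue) and siALDOA (orange), with the replicate number as the symbol and the group mean ± SD (n = 3) as the black bar beside the points. The groups are apart for HSPA9, DNAJC10, DNAJC11 and HSPB1 and meet or overlap for HSPA8, HSPA1A, HSP90AB1 and HSPH1.

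None of the HSP110, HSP90 or mitochondrial chaperonin genes was called by edgeR or DESeq2, and 0 of these 7 had an unadjusted P below 0.05. Over all tested genes edgeR called 4.36% higher and 5.29% lower, and 11.3% and 12.3% had an unadjusted P below 0.05. HSP90AB1 was at 1080, 1050 and 1030 CPM with siALDOA and at 1060, 1110 and 1070 CPM with siControl, and its log2 fold change was -0.035 (95% interval -0.16 to 0.091, adjusted p = 0.781). HSP90AA1, the stress-inducible cytosolic HSP90, was at 517, 466 and 414 CPM with siALDOA and at 445, 478 and 410 CPM with siControl, and its log2 fold change was 0.069 (95% interval -0.082 to 0.22, adjusted p = 0.624). The groups overlapped in both genes, and the highest and nearly the lowest HSP90AA1 level came from siALDOA. HSPD1 was at 542, 516 and 479 CPM with siALDOA and at 496, 539 and 494 CPM with siControl, with a log2 fold change of 0.0082 (95% interval -0.12 to 0.13, adjusted p = 0.955). HSPE1, the partner of HSPD1 from the same bidirectional promoter, had a log2 fold change of -0.037 (adjusted p = 0.806). The readthrough symbol HSPE1-MOB4 had a higher level than HSPE1, 82.2 against 65.1 CPM with siALDOA and 89.5 against 66.8 CPM with siControl, and how reads common to both were counted is not given in the sources used here, so the HSPE1 value is uncertain. The same holds for DNAJC25 beside DNAJC25-GNG10. For HSP90AB1 and HSPD1 these intervals leave room for changes of at most 0.16 on the log2 scale in either direction. The nucleotide exchange factors HSPA4, HSPA4L and HSPH1 had values of 0.12, 0.0097 and 0.089. HSPH1 was at 204, 158 and 151 CPM with siALDOA and at 180, 162 and 139 CPM with siControl. Its coefficient of variation, 16.9% with siALDOA and 13% with siControl, stood against medians of 6.22% and 5.02% over the 43 members at 10 CPM or more.

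Among the small heat shock proteins only 3 of 9 symbols had enough counts to be tested. HSPB1 (HSP27, chromosome 7, 76302673 to 76304295, plus strand), which binds unfolded proteins and actin, was the only abundant one. It was at 159, 152 and 152 CPM with siALDOA and at 147, 120 and 135 CPM with siControl. All siALDOA libraries were higher, siControl 1 coming nearest. The log2 fold change was 0.20 (SE 0.0669, 95% interval 0.065 to 0.34) and its adjusted p of 0.059 missed the threshold. HSPB1 was called in 5 of 14 alternatives, among them DESeq2 (adjusted p = 0.0369) and the fit without siControl 1 (0.28, adjusted p = 0.0156), and over all alternatives its log2 fold change ran from 0.13 to 0.28 and its adjusted p from 0.00924 to 0.317. HSPB11, now named IFT25, a part of the ciliary transport complex and not a typical chaperone, was at 7.08, 5.72 and 7.25 CPM with siALDOA and at 7.28, 6.98 and 6.43 CPM with siControl. The groups overlapped (log2 fold change -0.046, adjusted p = 0.887).

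The symbol HSPB2-C11orf52 names transcripts that read through from HSPB2 into its neighbour C11orf52 (chromosome 11, 111912736 to 111926871, plus strand). Its counts were 328, 395 and 334 with siALDOA and 294, 264 and 315 with siControl, or 11.8, 13.1 and 11.8 CPM against 9.43, 8.65 and 9.56 CPM. These counts were the same as those of C11orf52 in all 6 libraries, and HSPB2 itself had 1 count in all. The value called here, a log2 fold change of 0.41 (SE 0.116, adjusted p = 0.029), is therefore also that of C11orf52, and the counts hold no separate measure of the heat shock protein. The call was lost without siALDOA 2 (0.35, adjusted p = 0.119), siControl 1 (0.42, adjusted p = 0.0509), siControl 2 (0.36, adjusted p = 0.12) or siControl 3 (0.44, adjusted p = 0.0697). Without this symbol, none of the 58 other tested members was called higher, 2 were called lower and the median log2 fold change was 0.021.

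No DNAJA or DNAJB gene, the classes of J-domain protein most directly tied to HSP70 folding, was called by edgeR or DESeq2. Of all tested genes edgeR called 4.36% higher and 5.29% lower. At an unadjusted P below 0.05 there were 2 of the 4 DNAJA genes, DNAJA1 and DNAJA2, both higher, and 0 of the 9 tested DNAJB genes, beside 11.3% of all tested genes higher and 12.3% lower. DNAJA1 was at 192, 181 and 173 CPM with siALDOA and at 172, 169 and 154 CPM with siControl. DNAJA2 was at 87.4, 86 and 92.7 CPM with siALDOA and at 80.6, 78.5 and 82.5 CPM with siControl. The siALDOA libraries were higher in both, and each had a log2 fold change of 0.14 with a 95% interval of 0.013 to 0.27, with adjusted p of 0.163 for DNAJA1 and 0.164 for DNAJA2. DNAJA3, the mitochondrial partner of HSPA9, was at 73.3, 80 and 84.2 CPM with siALDOA and at 87.6, 82 and 85.8 CPM with siControl, and its log2 fold change was -0.11 (adjusted p = 0.351). DNAJB1 (HSP40), a standard reporter of the heat shock response, was at 103, 101 and 105 CPM with siALDOA and at 104, 100 and 107 CPM with siControl. Its libraries lay closer together than those of most members, and its log2 fold change was -0.012 (95% interval -0.13 to 0.11, adjusted p = 0.933). DNAJB6, which keeps aggregation-prone proteins soluble, was at 124, 106 and 105 CPM with siALDOA and at 114, 108 and 103 CPM with siControl (log2 fold change 0.036, adjusted p = 0.804). DNAJB2, which passes clients to the proteasome, was at 59.7, 61.8 and 62.2 CPM with siALDOA and at 64.2, 67.4 and 68.1 CPM with siControl. Its groups did not overlap, but the log2 fold change of -0.12 did not pass the test (adjusted p = 0.248). The other 6 tested DNAJB genes lay between -0.15 for DNAJB4 and 0.25 for DNAJB7.

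Of the 25 DNAJC genes, a class in which most members have special clients or places, 1 fell (4%, beside 5.29% of all tested genes) and none rose (beside 4.36%). The groups were apart with siALDOA lower for 6 of them (24%, beside 14.6%) and with siALDOA higher for 2 (8%, beside 13.1%). DNAJC10 (chromosome 2, 182716255 to 182794464, plus strand) encodes ERdj5, which reduces wrong disulfide bonds of proteins that are to be degraded from the ER. It was at 138, 134 and 132 CPM with siALDOA and at 167, 171 and 170 CPM with siControl. All siALDOA libraries were lower, and the gap between the groups was several times the SDs of 3.08 and 2.23 CPM. The level with siALDOA was 79.6% of that with siControl, a log2 fold change of -0.33 (SE 0.0552, 95% interval -0.45 to -0.21, adjusted p = 0.000459). DNAJC10 was called in 14 of 14 alternatives, with values from -0.35 to -0.26 and adjusted p of at most 0.0403. The counts behind it were 3846, 4016 and 3759 with siALDOA and 5203, 5226 and 5594 with siControl.

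DNAJC11, a protein of the mitochondrial outer membrane that is needed for cristae, was at 65.3, 65.9 and 67.8 CPM with siALDOA and at 71.9, 78.3 and 78 CPM with siControl. Its groups were apart, but with a log2 fold change of -0.20 its adjusted p was 0.051, and it was called in 5 of 14 alternatives, among them DESeq2 (adjusted p = 0.0318) and the fit without siControl 1 (adjusted p = 0.0381). The 3 DNAJC genes with the highest level per kb were not called. DNAJC5, the cysteine string protein of secretory vesicles, was at 299, 306 and 319 CPM with siALDOA and at 329, 330 and 332 CPM with siControl, all higher than with siALDOA (log2 fold change -0.10, adjusted p = 0.274). DNAJC7, which binds HSP70 and HSP90 through its TPR repeats, was at 50.4, 46.9 and 53.1 CPM with siALDOA and at 46.8, 47.7 and 43.6 CPM with siControl (log2 fold change 0.12, adjusted p = 0.307). DNAJC8, a splicing-associated protein, was at 82.3, 80.3 and 80.5 CPM with siALDOA and at 72.8, 81.4 and 80.6 CPM with siControl (log2 fold change 0.050, adjusted p = 0.695). DNAJC7 and DNAJC8 overlapped between the groups. The highest value of the class, 1.18 for the clathrin-uncoating cofactor DNAJC6, rested on counts of 34, 25 and 45 with siALDOA and 16, 25 and 9 with siControl, and its adjusted p was 0.099. The lowest, -0.44 for DNAJC27, had an adjusted p of 0.159. The other DNAJC genes lay between these.

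The 15 members known to be induced by heat, of which HSPB8 was not tested, gave 0 calls among 14 tested by edgeR at the adjusted threshold. This stood beside 4.36% of all tested genes called higher and 5.29% called lower. Of the 14 members, 3 had an unadjusted P below 0.05 and were higher, DNAJA1, HSPA8 and HSPB1. They were 21.4%, beside 11.3% of all tested genes, and 0 were lower at this P, beside 12.3%. DESeq2 called HSPB1 and no other of the 14. The median log2 fold change of the 14 was 0.079, with 10 above 0 and 4 below, and a range from -0.15 for DNAJB4 to 0.43 for HSPA6. With library totals only the median was 0.15, with 13 above 0 and HSPB1 called, and with limma-voom it was 0.037. The values varied with single libraries as well. siALDOA 1 was the highest library for 10 of the 14 genes, beside 21.9% of all tested genes, and siControl 3 was the lowest for 7, beside 14.6%. Without siALDOA 1 the median was -0.024 with 5 above 0 and 9 below, and without siControl 3 it was 0.012. For the 13 genes with counts in all libraries, the median deviation from each gene's own mean on the log2 scale was 0.12 in siALDOA 1, -0.021 in siALDOA 2 and -0.051 in siALDOA 3. It was 0.031 in siControl 1, -0.0013 in siControl 2 and -0.11 in siControl 3. The largest deviations in siALDOA 1 were those of HSPH1 (0.31) and HSP90AA1 (0.19). The spread within the groups was thus as large as the difference between them. Among the members with a 3-unit element, HSP90AB1 deviated by at most 0.05 in any library, while HSPA8, HSP90AA1 and DNAJA1 deviated by up to -0.18, 0.19 and -0.17. The sum of the HSP110 genes was 445, 364 and 356 CPM with siALDOA and 388, 370 and 336 CPM with siControl, highest in siALDOA 1 and lowest in siControl 3.

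**Figure D5:**
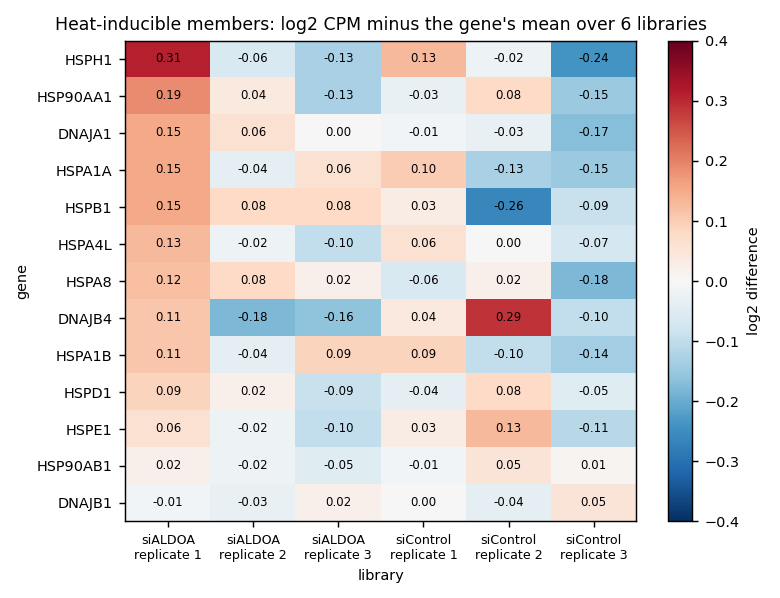
Log2 CPM minus the gene's mean over the 6 libraries for the 13 heat-inducible members with counts in every library, with genes as rows, libraries as columns and the difference given in each cell, red above and blue below 0. siALDOA 1 is above the mean for 12 of the 13 genes and siControl 3 for 2.

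By place in the cell, the 9 mitochondrial members gave 1 call, HSPA9, with a median of 0.0082 and a range from -0.30 to 0.57. HSPA9 and DNAJC11 were apart between the groups, both lower with siALDOA, while the groups overlapped for the other 7. The call is 11.1% of these members, beside 5.29% of all tested genes called lower, and the 2 apart are 22.2%, beside 14.6%. Of these DNAJA3 was at -0.11, DNAJC15 at 0.11 and DNAJC28 at 0.57, and HSPD1, HSPE1, DNAJC19 and DNAJC30 had values from -0.037 to 0.059. With library totals only the median was 0.081, and none of the 9 was called. An incomplete list of 6 members of the ER, HSPA13, DNAJB12, DNAJB14, DNAJC1, DNAJC10 and DNAJC25, had values below 0, from -0.33 to -0.037 with a median of -0.13. Of all 15307 tested genes, 7612 were below 0. Only DNAJC10 passed the test, which is 16.7% of the list, beside 5.29% of all tested genes called lower. The groups were apart with siALDOA lower for 2 of the 6 (33.3%, beside 14.6%). After DNAJC10 the lowest was DNAJC1, a membrane protein of the ER that binds ribosomes, at -0.26 with an adjusted p of 0.113 and groups that did not overlap. With scaling by library totals only, 5 of these 6 were below 0 and their median was -0.053. DNAJC16 and DNAJC18, J-domain proteins of the ER that were not in the list, had values above 0, 0.039 (adjusted p = 0.8) and 0.32 (adjusted p = 0.194), so the common direction holds for the listed genes and not for all ER members.

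The 5 ER chaperones that were left out of the list had values above 0 in 4 cases, and 1 was called higher (20%, beside 4.36% of all tested genes). HSP90B1 (GRP94) was at 595, 515 and 505 CPM with siALDOA and at 435, 463 and 455 CPM with siControl, all higher with siALDOA. Its log2 fold change was 0.26 (SE 0.0633, adjusted p = 0.0122), and the call was lost without siControl 3 (0.26, adjusted p = 0.0565). HSPA5 (BiP), the HSP70 of the ER, had 0.10 (adjusted p = 0.309), DNAJB11 0.14 (adjusted p = 0.204), DNAJC3 0.078 (adjusted p = 0.51) and DNAJB9 -0.0092 (adjusted p = 0.962). The siALDOA levels lay above the siControl levels in 3 of the 5, beside 13.1% of all tested genes.

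Regulators and partners of these chaperones were compared in the same way. The 4 genes of the heat shock factor list, HSF1, HSF2, HSF4 and HSBP1, had 0 calls by edgeR and by DESeq2, 0 with an unadjusted P below 0.05, and a median of 0.068. Over all tested genes edgeR called 4.36% higher and 5.29% lower, and 11.3% and 12.3% had an unadjusted P below 0.05. The siALDOA levels lay above the siControl levels for HSBP1 (log2 fold change 0.098, adjusted p = 0.365), or 25% of the list beside 13.1% of all tested genes. HSF1 was at 87.1, 103 and 99.5 CPM with siALDOA and at 95.8, 95.7 and 96.5 CPM with siControl, and its log2 fold change was 0.011 (95% interval -0.13 to 0.15, adjusted p = 0.946). HSF2 had 0.038 (adjusted p = 0.878). Of a list of 15 genes, HSP90 cochaperones and the mitochondrial HSP90 TRAP1, 1 rose and 1 fell, with a median of 0.039. Each is 6.67% of the list, beside 4.36% of all tested genes called higher and 5.29% called lower. DESeq2 and limma-voom each called 2 lower, adding STIP1, which links HSP70 to HSP90 (log2 fold change -0.16, adjusted p = 0.0583 with edgeR, 0.0167 with DESeq2 and 0.0474 with limma-voom). The replicate block called 3 lower, adding STIP1 (adjusted p = 0.0276) and TRAP1 (adjusted p = 0.0365), and library totals only called 0 lower. UNC45A, which helps myosin to fold, was at 131, 117 and 129 CPM with siALDOA and at 91.3, 92 and 88.3 CPM with siControl. The groups were far apart, with a log2 fold change of 0.47 (SE 0.0614, adjusted p = 2.8e-05), and it was called in all 14 alternatives. CDC37, which brings kinases to HSP90, was at 77.6, 109 and 102 CPM with siALDOA and at 113, 127 and 121 CPM with siControl. Its log2 fold change was -0.32 (adjusted p = 0.026). Without siALDOA 1, its lowest library, it was -0.19 with an adjusted p of 0.0605, and the call was also lost without siControl 2 (-0.28, adjusted p = 0.13) or siControl 3 (-0.32, adjusted p = 0.084) and with library totals only (-0.25, adjusted p = 0.137).

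Among 12 HSP70 cochaperones 1 fell (8.33%, beside 5.29% of all tested genes) and none rose. Of these genes 10 had values below 0, beside 7612 of all 15307 tested genes, and the median was -0.074. With scaling by library totals only, 6 of the 12 were below 0 and none was called. With the replicate block 2 were called lower, BAG5 (adjusted p = 0.0138) and GRPEL1 (adjusted p = 0.034). The siALDOA levels lay below the siControl levels in 5 of the 12, or 41.7%, beside 14.6% of all tested genes. BAG5, a nucleotide exchange factor of HSP70, was at 58.5, 58.4 and 56.1 CPM with siALDOA and at 71.7, 65.7 and 64.5 CPM with siControl. Its log2 fold change was -0.22 (adjusted p = 0.0343). The call held without siALDOA 1 and was lost without each of the other 5 libraries, with adjusted p of 0.0621 to 0.148, and with library totals only (-0.15, adjusted p = 0.309). The 8 subunits of the cytosolic chaperonin TRiC, which folds actin and tubulin, gave 0 calls in the main edgeR fit, beside 4.36% of all tested genes called higher and 5.29% lower. CCT3 was called lower by DESeq2 (adjusted p = 0.049) and by edgeR with the replicate block (adjusted p = 0.0397). In the main fit 2 subunits had an unadjusted P below 0.05, TCP1 and CCT3, both lower, or 25% of the list beside 12.3% of all tested genes. The median of the 8 was -0.042, with 7 of 8 below 0, beside 7612 of all 15307 tested genes, and a range from -0.15 to 0.12. With scaling by library totals only, 6 of the 8 were above 0 and the median was 0.031.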

How the data were processed

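RNA of 3 siALDOA and 3 siControl libraries was sequenced. Alignment by the authors used TopHat2 and hg38, counting used gfold, and the deposited files hold whole-number counts per gene symbol without normalization. The annotation, the strand setting and the treatment of reads with several matches are not given in the sources used here. Members and lists were chosen with earlier results of these data known.

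Counts were tested in R 4.3.3 with edgeR 4.0.16 (filterByExpr, TMM, quasi-likelihood F-test, no covariate), and p-values were adjusted over all 15307 tested genes by the Benjamini-Hochberg method with a threshold of 0.05. The unadjusted threshold of 0.01 is that of the study. Depth was 27277538 to 33237914 counts per library. A limit given for a gene without counts is 3 counts and covers counting error only. On data simulated from these groups edgeR recovered 66% of genes changed by 0.5 and 87.9% of those changed by 1 in log2. There 11 of 15156 genes were called falsely. Smaller changes were not simulated, so these rates do not cover changes of the size seen in most members. The alternatives were DESeq2 1.42.0, limma-voom (limma 3.58.1), library totals only, upper quartile scaling, no filter, at least 10 counts in every library, ribosomal RNA genes left out, the replicate number as a block, and leaving out each library in turn. Values in every library were given for members past the threshold and for the 3 with the highest siControl CPM per kb in the groups HSPA, HSPB, HSP90 with HSPD1, HSPE1 and HSPH1, DNAJA, DNAJB and DNAJC. From the other lists the genes past the threshold, HSF1, HSF2 and the ER genes left out were named. A gene of the HSP70 cochaperone list is not reported here, and the counts of that list are without it. HSPH1 and DNAJC11 were shown in full after their values were seen. Transcript lengths came from GENCODE release 44 canonical transcripts, promoters from RefSeq GRCh38.p14. Figures were drawn with matplotlib 3.10.9 in python 3.11.15.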

Additional observations from a re-analysis of the deposited data

How the results depend on the processing

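The members called higher numbered 1 with edgeR and 2 with DESeq2, library totals only, no filter or the replicate block, and 0 to 1 with a library left out. HSPB1 was the gene added in each of these 4. The members called lower numbered 2, 1 with library totals only, 3 with DESeq2, no filter, at least 10 counts in every library or the replicate block, which added DNAJC11, and 2 to 3 with a library left out. At an unadjusted P below 0.01 there were 2 higher and 3 lower members, 4 and 1 with library totals only, and 1 to 3 higher and 2 to 3 lower with a library left out. The median log2 fold change of 0.029 became 0.011 with limma-voom, 0.0057 with no filter, 0.013 with at least 10 counts in every library and 0.11 with library totals only, where the median over all genes moved to 0.075, and ranged from -0.013 to 0.032 with a library left out. Directions were compared for the 20 members taken by the naming rule and for HSPH1. They turned with library totals only for DNAJB1 (0.06), HSP90AB1 (0.037) and HSPB11 (0.028). With a library left out, values on both sides of 0 were found for DNAJB1 (-0.036 to 0.012), DNAJB6 (-0.046 to 0.077), HSP90AA1 (-0.013 to 0.15), HSPB11 (-0.11 to 0.055), HSPD1 (-0.035 to 0.053) and HSPH1 (-0.059 to 0.18). The cause of these changes was not tested. With library totals only, 896 genes were called higher and 279 lower, beside 668 and 810 with TMM. Whether the replicate numbers pair the samples is not given in the labels, and these data did not settle it. The correlations of same-numbered deviations were small, 0.035, 0.027 and 0.026. Each library still correlated best with its own number, and differently numbered libraries had -0.046 to 0.022. With the replicate block 2 members were called higher and 3 lower, and 987 and 1175 of all genes, beside 668 and 810 without it. With 3 libraries a group, changes of the size of those of most members here were within the spread.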

Other observations

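CHORDC1, an HSP90 cochaperone that is itself induced by heat, was chosen after its values were seen. It was at 29, 23.8 and 17.9 CPM with siALDOA and at 30, 27 and 17.5 CPM with siControl, so that both groups covered nearly the same range (log2 fold change -0.075, adjusted p = 0.828).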
